A study of Mus musculus with 2 samples.

Results

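The genes described here are 10 tubulin genes of the mouse, chosen by symbol, among the 29311 genes listed in both tables. They are the beta-tubulin genes *Tubb2a*, *Tubb2b*, *Tubb2c* (now also named *Tubb4b*), *Tubb3*, *Tubb5* and *Tubb6*, the alpha-tubulin genes *Tuba1a*, *Tuba1b* and *Tuba1c*, and the gamma-tubulin gene *Tubg1*. All 10 were found, and all were above 0 in both samples. The series holds 2 RNA-seq samples, 1 of wild-type E14 embryonic stem (ES) cells and 1 of wild-type forebrain cells from B6CBAF1/J mouse embryos, dissected at E10.5 (days of embryonic development). The ES cells were a line grown without feeder cells, on gelatin, with serum and LIF (a cytokine that maintains the pluripotent state) before extraction with Trizol, whereas the forebrain was tissue extracted with Trizol LS. Strain, culture and reagent thus cannot be told apart from the cell type. *Tubb2c* was the gene to which the study related its RT-qPCR measurements in the same cell types. With 1 sample per group, no difference below has a replicate check, and no test between the cell types was possible.

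Microtubules are hollow polymers of alpha-tubulin and beta-tubulin, which pair into dimers, while gamma-tubulin starts new microtubules at centrosomes and other organising sites. Mammals carry several genes for each, and the encoded isotypes are very similar along most of their length and differ mainly in an acidic tail at the C terminus. Some isotypes are present in nearly all cells, such as those of *Tubb5* and *Tubb2c*, whereas *Tubb3* is widely used as a marker of neurons and *Tuba1a* is the alpha-tubulin gene most associated with developing neurons.

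Because reads can be assigned to one isotype only where the genes differ, the ends of the coding sequences of 5 beta-tubulin genes are shown, each with the last 60 coding bases, stop codon included, 5′ to 3′ on the strand of the gene. They were read from NCBIM37 (mm9), at chr2:25077828-25077887 on the minus strand for *Tubb2c*, chr13:34166337-34166396 on the minus strand for *Tubb2a*, chr13:34219340-34219399 on the minus strand for *Tubb2b*, chr8:125945523-125945582 on the plus strand for *Tubb3* and chr17:35971927-35971986 on the minus strand for *Tubb5*. Capitals mark bases that differ from *Tubb2c* in a global alignment of these ends.
Tubb2c: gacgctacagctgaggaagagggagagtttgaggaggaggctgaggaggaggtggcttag
Tubb2a: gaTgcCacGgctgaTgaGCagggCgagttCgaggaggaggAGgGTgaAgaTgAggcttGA
Tubb2b: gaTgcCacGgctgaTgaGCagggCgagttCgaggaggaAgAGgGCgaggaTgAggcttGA
Tubb3: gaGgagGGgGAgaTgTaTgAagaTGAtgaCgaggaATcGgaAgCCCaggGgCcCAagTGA
Tubb5: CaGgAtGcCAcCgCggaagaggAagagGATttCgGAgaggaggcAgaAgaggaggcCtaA
The end of *Tubb3* differed from that of *Tubb2c* at 27 of its bases. *Tubb5* differed at 19 bases, and *Tubb2a* and *Tubb2b* at 17 each. The ends of *Tubb2a* and *Tubb2b* were nearly the same as each other, and their whole coding sequences were 96.5% identical, whereas *Tubb2c* was 80.8% to 83.6% identical to the other beta-tubulin genes described here.

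The alpha-tubulin genes are more alike still. Their coding sequences were 97.1% identical between *Tuba1a* and *Tuba1c*, 97.9% between *Tuba1b* and *Tuba1c* and 98.3% between *Tuba1a* and *Tuba1b*.

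The deposited value is an RPKM, a number of reads per kilobase of exon with a scaling per sample. Comparisons between samples depend on that scaling, and comparisons between genes on how reads of similar sequences were counted. Reads per gene were recovered from the smallest steps of the values, and the 95% intervals below are exact Poisson intervals on those reads for levels and Clopper-Pearson intervals for folds and shares. They cover counting error only. The ES cell library held 42741307 reads on genes, of which the 10 tubulin genes took 0.211%, and the forebrain library 59773165, of which they took 0.342%. All 6 of the ES cell markers examined were at least 2-fold higher in ES cells. All 5 listed neural progenitor markers and all 6 neuron markers were at least 2-fold higher in E10.5 forebrain. The forebrain sample also held RNA of other cell types. Its summed RPKM over 5 erythroid markers was 675750, against 330 in ES cells, and over 5 mesenchyme markers it was 17600, against 49.1. Over 5 endothelial markers it was 2132, against 628, of which *Pecam1*, 1.74-fold higher in ES cells, made up 551. The other 4 summed to 1815 in E10.5 forebrain, against 76.5. None of the markers with an entry was at 0 in either sample. The neural progenitor marker *Sox1* was also looked for but had no entry in either sample. How much these cells contribute to the tubulin values was not tested, and in tissue as a whole, fewer cells of a type and less RNA per cell cannot be told apart.

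*Tubb2c* was the second highest of the 10 genes in ES cells and the sixth in E10.5 forebrain. It stood at 7337 RPKM in ES cells (95% interval 7209 to 7466, 12536 reads) and at 3047 RPKM in E10.5 forebrain (2980 to 3116, 7767 reads). The reference gene was thus 2.41-fold higher in ES cells (95% interval 2.34 to 2.48). The gene (ENSMUSG00000036752) lies at chr2:25077680-25080222 on the minus strand and has 3 exons. Its exons overlap those of *Fam166a* on the opposite strand by 121 bp, or 5.8% of their length. *Fam166a* was listed at 1655 RPKM in ES cells and 607 RPKM in E10.5 forebrain. Whether reads were counted across the strands was not tested.

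*Tubb3* differed in the other direction. The neuronal isotype had 795 RPKM in ES cells (751 to 842, 1216 reads) and 3318 RPKM in E10.5 forebrain (3244 to 3394, 7566 reads), a 4.17-fold difference (3.93 to 4.44). The value in ES cells was far from 0 and higher than that of 84.1% of all listed genes. The 6 neuron markers were lower there, from 0.36 RPKM (*Snap25*) to 43.7 RPKM (*Ina*). In E10.5 forebrain *Tubb3* was at the 96.6th percentile. The gene (ENSMUSG00000062380) is at chr8:125935324-125945915 on the plus strand.

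*Tubb5*, which encodes the main beta-tubulin of dividing cells, was the highest of the 10 genes in both samples. It had 23069.9 RPKM in ES cells, from 62714 reads, and 35729 RPKM in the forebrain sample, from 144882 reads. Its value was 1.55-fold higher in E10.5 forebrain (1.53 to 1.56), and it ranked at the 99.3rd and 99.7th percentile of all genes. *Tubb6*, a beta-tubulin found in many tissues, had 1595 RPKM in ES cells and 2362 RPKM in the forebrain sample, a 1.48-fold difference (1.41 to 1.56) in the same direction.

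The neighbouring genes *Tubb2a* and *Tubb2b*, at chr13:34166170-34169877 and chr13:34218877-34222223, differed between the samples to a similar degree. *Tubb2a* had 2304 RPKM in ES cells (2223 to 2389) and 4667 RPKM in E10.5 forebrain (4571 to 4764). *Tubb2b*, an isotype known from migrating neurons, had 2875 RPKM in ES cells (2792 to 2960) and 5979 RPKM in E10.5 forebrain (5881 to 6079). The folds were 2.03 (1.94 to 2.11) and 2.08 (2.01 to 2.15), both higher in E10.5 forebrain, and their intervals overlap.

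Of the alpha-tubulin genes, *Tuba1a* showed the largest fold of all 10 genes. It had 1070 RPKM in ES cells (1015 to 1127, 1442 reads) and 6291 RPKM in E10.5 forebrain (6182 to 6402, 12648 reads), a 5.88-fold difference (5.57 to 6.21). *Tuba1c*, a more generally expressed alpha-tubulin, went in the opposite direction, with 757 RPKM in ES cells (715 to 800.8) and 289 RPKM in E10.5 forebrain (268 to 311), or 2.62-fold higher in ES cells (2.39 to 2.88). *Tuba1b*, another general alpha-tubulin, had 314 RPKM in ES cells (287 to 344) and 256 RPKM in E10.5 forebrain (235 to 277), which is 1.23-fold higher in ES cells (1.09 to 1.39). All 3 lie on chromosome 15, with *Tuba1b* and *Tuba1a* on the minus strand at chr15:98761856-98764996 and chr15:98780272-98783982, and *Tuba1c* on the plus strand at chr15:98860322-98868536.

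*Tubg1*, the main gamma-tubulin gene, had 307 RPKM in ES cells (282 to 333, 569 reads) and 686 RPKM in E10.5 forebrain (656 to 718, 1898 reads). It was 2.24-fold higher in E10.5 forebrain (2.04 to 2.46). The gene is at chr11:100981252-100987733 on the plus strand, with 11 exons.

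**Figure D1:**
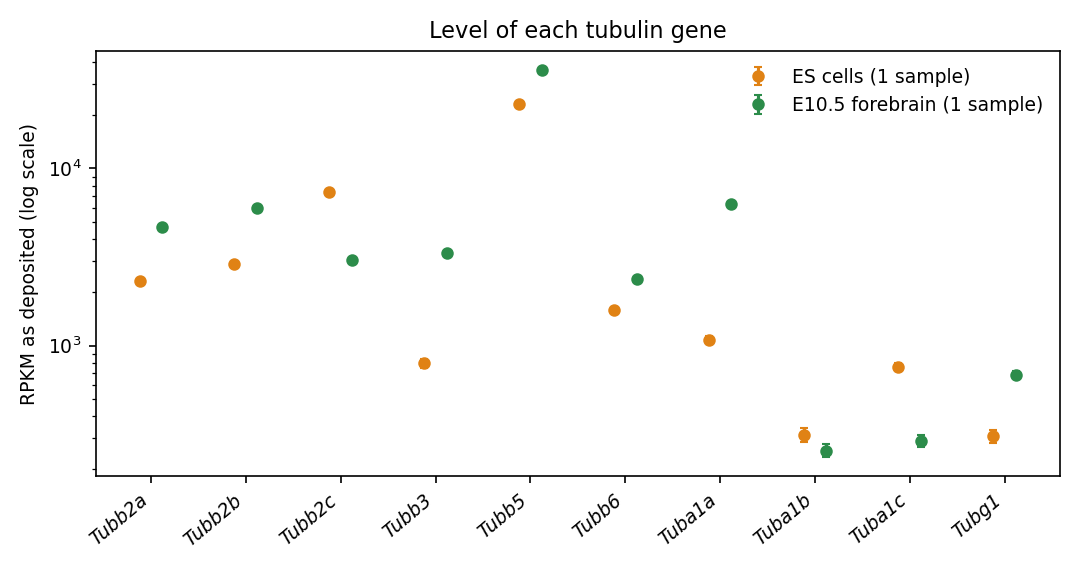
RPKM of each of the 10 tubulin genes on a log axis, in the sample of ES cells (orange) and the sample of E10.5 forebrain (green), with exact Poisson 95% intervals on the inferred reads, most of which are smaller than the points. *Tubb5* is highest in both samples, and *Tubb2c*, *Tuba1b* and *Tuba1c* are the genes with the higher value in ES cells.

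In ES cells, the order of levels from high to low was *Tubb5*, *Tubb2c*, *Tubb2b*, *Tubb2a*, *Tubb6*, *Tuba1a*, *Tubb3*, *Tuba1c*, *Tuba1b* and *Tubg1*. *Tubb3* and *Tuba1c* could not be separated by counting error, nor could *Tuba1b* and *Tubg1*. In E10.5 forebrain the order was *Tubb5*, *Tuba1a*, *Tubb2b*, *Tubb2a*, *Tubb3*, *Tubb2c*, *Tubb6*, *Tubg1*, *Tuba1c* and *Tuba1b*, where the intervals of the last 2 genes overlap. *Tuba1a* thus stood sixth in ES cells and second in E10.5 forebrain, and *Tubb2c* the reverse. The spread between samples of a cell type is unknown.

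A gene was counted as different where the ratio of RPKM + 1 was at least 2, among the 22093 genes with a larger RPKM of at least 10. For genes with low values, this scale gives too small a fold. By this measure, 2 of the 10 genes (*Tubb2c* and *Tuba1c*) were higher in ES cells, beside 22.7% of all genes. In E10.5 forebrain, 5 of the 10 (*Tubb2a*, *Tubb2b*, *Tubb3*, *Tuba1a* and *Tubg1*) were higher, beside 26.3% of all genes. *Tubb5*, *Tubb6* and *Tuba1b* passed in neither direction. *Tubb2a*, *Tubb2b* and *Tubg1* lay close to the limit and *Tubb3* and *Tuba1a* well beyond it. With each sample divided by its upper quartile, 3 of the 10 genes were at least 2-fold higher in E10.5 forebrain, and with the median protein-coding gene set to no difference 2 were. With each sample divided by the sum of its RPKM, 1 gene was at least 2-fold higher in ES cells. The shares of all genes were not computed under these scalings, so these counts have no background beside them.

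**Figure D2:**
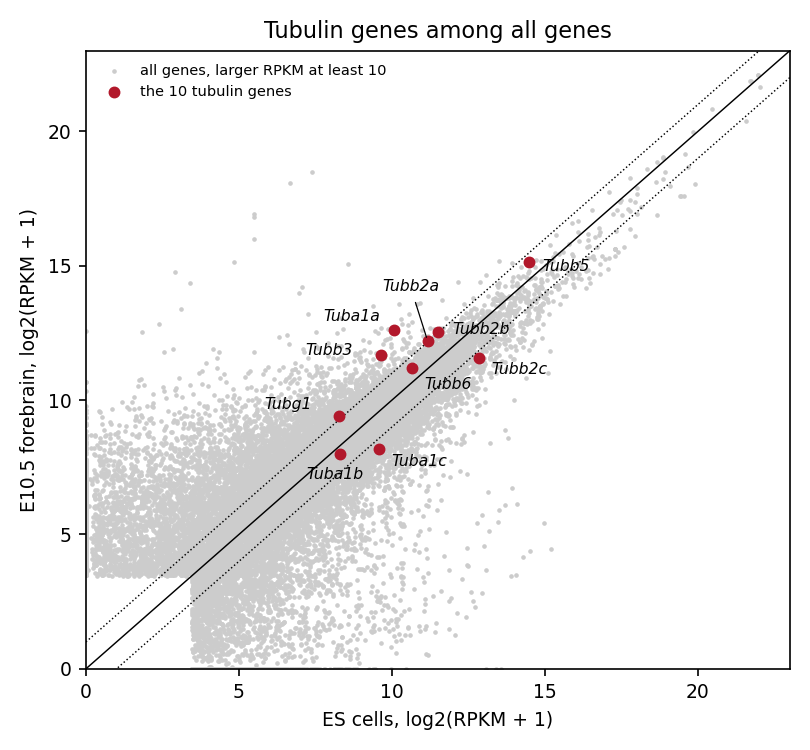
Each point is a gene with a larger RPKM of at least 10, with log2(RPKM + 1) in ES cells on the horizontal axis and in E10.5 forebrain on the vertical axis, and the 10 tubulin genes are in red. The solid line marks equal values and the dotted lines a 2-fold difference. *Tubb2c* and *Tuba1c* lie below the lower dotted line, and *Tubb3* and *Tuba1a* lie farthest above the upper one.

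The makeup of the beta-tubulin RNA differed between the samples mainly in *Tubb2c*. Summed over the 6 genes, beta-tubulin reached 37977 RPKM in ES cells and 55103 RPKM in E10.5 forebrain, and *Tubb5* made up most of it in both, at 60.8% (60.4 to 61.1) and 64.8% (64.6 to 65.1). *Tubb2c* made up 19.3% in ES cells (19.0 to 19.6) and 5.53% in E10.5 forebrain (5.41 to 5.65). The share of *Tubb3* was 2.09% in ES cells (1.98 to 2.21) and 6.02% in E10.5 forebrain (5.89 to 6.15). *Tubb2b* made up 7.57% and 10.85%, and *Tubb2a* 6.07% and 8.47%. *Tubb6* stood at 4.20% and 4.29%, with overlapping intervals. In ES cells the share of *Tubb2c* was well above that of *Tubb3*, whereas in E10.5 forebrain *Tubb3* was slightly above *Tubb2c*.

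Among *Tuba1a*, *Tuba1b* and *Tuba1c*, the summed RPKM was divided more evenly in ES cells than in E10.5 forebrain, where most of it was *Tuba1a*. *Tuba1a* made up 49.96% of the sum of the 3 genes in ES cells (48.2 to 51.7) and 92.0% in E10.5 forebrain (91.6 to 92.4). Over all 8 listed alpha-tubulin genes its share was 26.5% in ES cells but 90.3% in the forebrain sample, since *Tuba4a*, described further below, had a higher level than *Tuba1a* in ES cells. *Tuba1c* accounted for 35.4% in ES cells (33.7 to 37.0) and 4.22% in E10.5 forebrain (3.92 to 4.54). *Tuba1b* accounted for 14.7% (13.5 to 15.9) and 3.74% (3.45 to 4.05). The intervals of each isotype do not overlap between the samples, although they say nothing of the spread between samples.

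**Figure D3:**
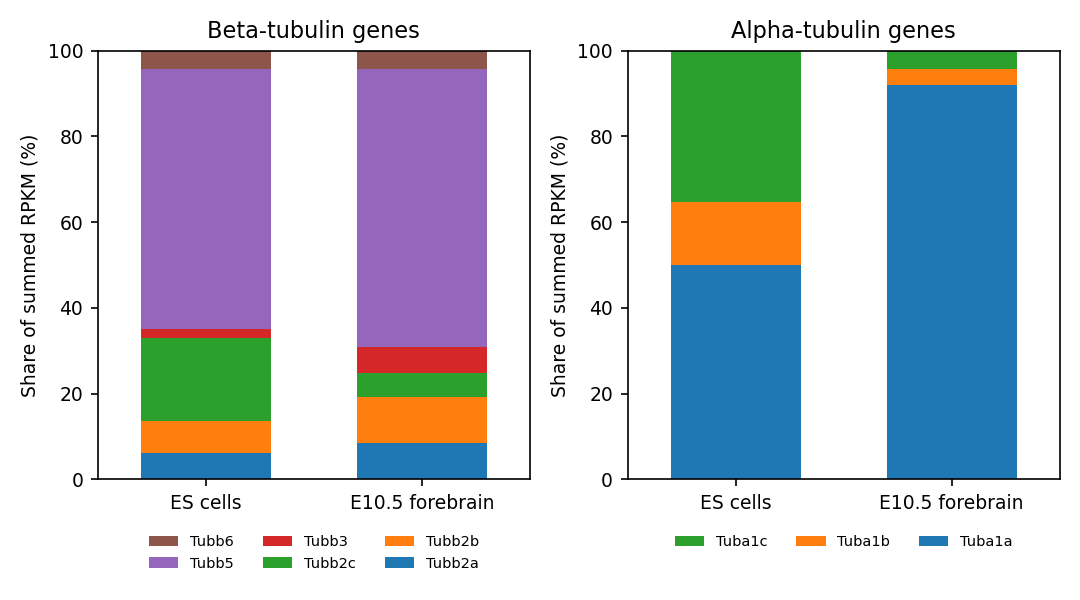
Share in percent of the summed RPKM taken by each of the 6 beta-tubulin genes (left) and each of the 3 alpha-tubulin genes (right), with 1 bar per sample. The *Tubb2c* segment shrinks from 19.3% in ES cells to 5.53% in E10.5 forebrain, and the *Tuba1a* segment grows from 49.96% to 92.0%.

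Alpha-tubulin and beta-tubulin are used in equal amounts in the dimer, but their listed values were unequal. The sum of the 3 alpha-tubulin genes was 2141 RPKM in ES cells and 6836 RPKM in E10.5 forebrain, 3.19-fold higher in the latter (2.78 to 3.86 over all scalings tried), whereas the beta-tubulin sum was 1.45-fold higher there (1.26 to 1.75). The beta-tubulin sum was 17.7 times the alpha-tubulin sum in ES cells but 8.06 times in the forebrain sample. Both contrasts depended on which alpha-tubulin genes were summed. Over all 8 listed alpha-tubulin genes, the sum was 4039.8 RPKM in ES cells and 6970.2 RPKM in the forebrain sample, a 1.73-fold difference. The sum of all 8 listed beta-tubulin genes was then 9.61 times the alpha-tubulin sum in ES cells but 8.12 times in the forebrain sample. Without *Tubb5*, the beta-tubulin sum was 14907 and 19374 RPKM, a 1.30-fold difference.

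The values of the alpha-tubulin genes need to be read with the copies of these genes in the genome. Among low values, genes fell not only at whole reads but also at 1/2, 1/3, 1/4 and 1/5 of a read (225, 167, 139 and 141 genes in ES cells, against 1190 at 1 read), and 0 genes fell at 1/6, 1/7 or 1/8. E10.5 forebrain showed the same pattern, with 227, 172, 142 and 197 genes. These are the values that a read divided evenly among up to 5 places would give. What was done with reads of more places is not given in the sources used here. To see how much of each gene this touches, every 50-base window of its longest matching transcript was searched in the genome and in the spliced tubulin transcripts.

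By exact matches, *Tubb6* and *Tubb5* were nearly free of copies, with 100% and 98.6% of windows at 1 place. *Tubb3* followed with 89.0% and *Tubg1* with 85.9%. Of the windows of *Tubb2a*, *Tubb2b* and *Tubb2c*, 49.6%, 42.7% and 42.1% were at 1 place, and 0 were at more than 5 places. In the alpha-tubulin genes, by contrast, 45.9% of windows of *Tuba1a*, 48.3% of *Tuba1b* and 39.3% of *Tuba1c* were at more than 5 places. With up to 2 mismatches allowed, these shares were 76.4%, 85.5% and 64.1%. The windows at 1 place were then 37.1% in *Tubb3*, 60% in *Tubg1* and 5.10% in *Tubb2c*, while *Tubb5* and *Tubb6* had 87.9% and 87.8%. With windows of 100 bases, the read length in the sample labels (the methods of the study give 50 bases), 70.0% of windows of *Tubb2c*, 45.0% of *Tuba1a* and 25.6% of *Tuba1b* were at 1 place. The part of these copies in the low alpha-tubulin sums was not tested.

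**Figure D4:**
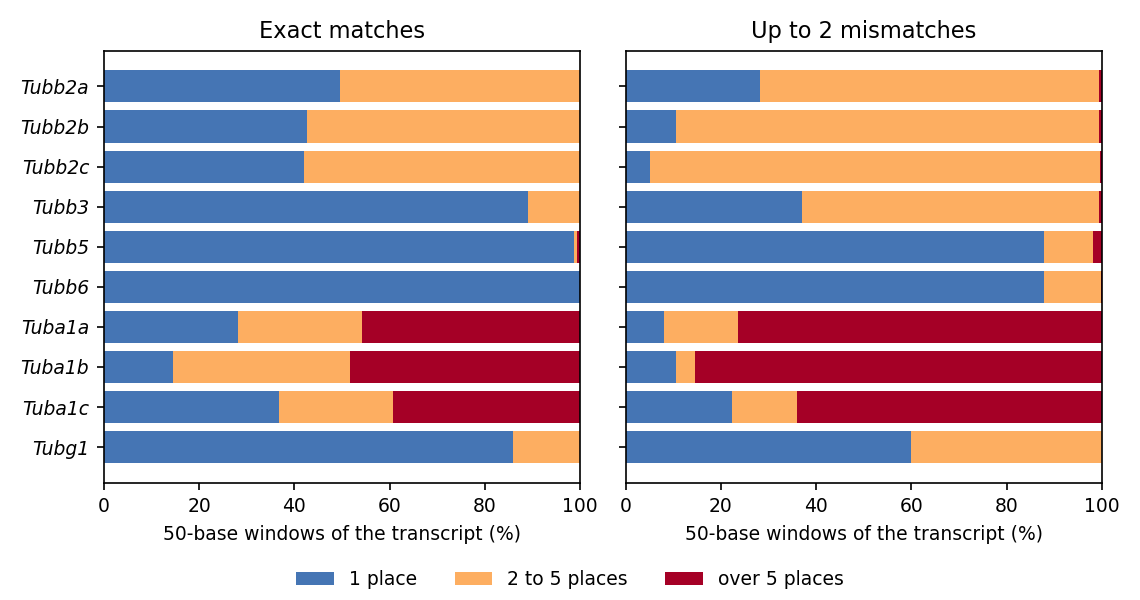
Percent of the 50-base windows of each transcript that match 1 place (blue), 2 to 5 places (orange) or over 5 places (red) in the genome and spliced tubulin transcripts, by exact matches (left) and with up to 2 mismatches (right). The 3 alpha-tubulin genes carry 39.3% to 48.3% of windows at over 5 places by exact matches, and each of the other genes under 1%.

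The windows with several places had partners that were in part common to similar genes. An unannotated copy on chromosome 12 held 19.2% of the windows of *Tubb2a* and 26.7% of those of *Tubb2b*. *Tubb2a* and *Tubb2b* shared 712 windows with each other, 46.4% of those of *Tubb2a* and 38.0% of those of *Tubb2b*, so that reads can pass between them. *Tubb2c* shared 706 windows (45.6%) with an unannotated copy at chr5:7179301-7180843 and 342 (22.1%) with another at chr1:24600770-24602326. It also shared 132 windows with the pseudogene *Gm16165* at chr9:22474178-22474972, which was listed at 5428 RPKM in ES cells and 2363 RPKM in E10.5 forebrain, a 2.30-fold difference in the direction of *Tubb2c* itself. *Tuba1b* and *Tuba1c* shared 1005 windows, 59.3% and 52.1% of theirs. *Tuba1a* shared 822 windows (51.4%) with *Tuba1c* and 761 (47.6%) with *Tuba1b*. The alpha-tubulin pseudogenes *Gm14150* and *Gm5620* were listed at 555 and 438 RPKM in ES cells and at 782 and 613 RPKM in E10.5 forebrain, which is above *Tuba1b* in both samples. *Gm17383*, the pseudogene that shares the most windows with *Tuba1b* (995), was listed at 122 and 133 RPKM, below *Tuba1b* in both. With up to 2 mismatches allowed, *Tubb5* shared 111 windows (4.28%) with the pseudogene *Gm11892*. This pseudogene was listed at 5271 RPKM in ES cells and 8588 RPKM in E10.5 forebrain, the direction of *Tubb5* itself. By exact matches, *Tubg1* shared 244 windows (13.9%) with *Tubg2*. By exact matches, most windows of *Tubb5*, *Tubb6*, *Tubb3* and *Tubg1* were thus found once, and fewer than 40% of those of each alpha-tubulin gene.

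Since *Tubb2c* was the reference of the RT-qPCR, the other genes were also expressed per *Tubb2c*, dividing the RPKM values within each sample. *Tubb3* amounted to 0.108 of *Tubb2c* in ES cells but 1.09 in the forebrain sample, 10.1-fold more, compared with 4.17-fold for the RPKM themselves. *Tuba1a* went from 0.146 to 2.07 per *Tubb2c*, a 14.2-fold difference. *Tuba1c*, which differed in the same direction as *Tubb2c*, stood at 0.103 and 0.0947. The other gene of general use for which the study had primers, *Tbp* (the TATA-binding protein), amounted to 0.0461 of *Tubb2c* in ES cells but 0.0771 in the forebrain sample. Any gene with equal RPKM in both samples would come out 2.41-fold higher in E10.5 forebrain on this scale.

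The genes with levels most like those of *Tubb2c* over the 2 samples, by Euclidean distance on log2(RPKM + 1) among protein-coding genes, were *Prdx1* (7622 RPKM in ES cells, 3032 in the forebrain sample), *Clta* (7275 and 3168) and *Cd81* (6978 and 3089.8). Those nearest to *Tubb3* were *Ttc3* (769 and 3000 RPKM), *Tead2* (709.9 and 3473) and *Lsm14b* (779 and 2904). The distances were 0.0555, 0.0575 and 0.0749 for *Tubb2c* and 0.153, 0.176 and 0.195 for *Tubb3*. With 2 samples, such likeness says only that both values are close.

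Of the 10 tubulin genes outside the set, 3 alpha-tubulin genes and *Tubb1* had larger folds than any of the 10 genes above, whereas others differed little. *Tuba4a*, an alpha-tubulin whose product lacks the C-terminal tyrosine when made, had 1524 RPKM in ES cells (2560 reads) and 116 RPKM in E10.5 forebrain (290 reads), 13.2-fold higher in ES cells (11.7 to 14.9). In ES cells it was thus above *Tuba1a*, at 1070 RPKM. *Tuba3a* and *Tuba3b*, alpha-tubulins known from testis, had 176 and 106 RPKM in ES cells and 1.87 and 0.90 RPKM in E10.5 forebrain, where they rest on 3 and 2 reads. Their ratios were 93.9 (36.4 to 527) and 118 (31.3 to 957). *Tuba8* had 92.8 and 15.9 RPKM, 5.84-fold higher in ES cells.

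*Tubb1*, the beta-tubulin of platelets and their precursors, was the opposite case, with 4.04 RPKM in ES cells (5 reads) and 137 RPKM in E10.5 forebrain (235 reads), a ratio of 34.0 (13.3 to 97.9). It lies in the direction of the erythroid markers given above. The listed neural progenitor, neuron and mesenchyme markers, and the endothelial markers other than *Pecam1*, lie in that direction too. The part of any of these cell types in the *Tubb1* value was not tested. *Tubg2*, the second gamma-tubulin gene, had 152 and 312 RPKM and a fold of 2.05 (1.76 to 2.40) in the direction of *Tubg1*. *Tubb4* (now *Tubb4a*) had 859 and 1385 RPKM, *Tubd1*, which encodes delta-tubulin, 297 and 366 RPKM, and *Tube1*, which encodes epsilon-tubulin, 161 and 247 RPKM, all under 2-fold. *Tubal3* was at 0.70 and 0.26 RPKM, from 2 reads and 1 read. Of the 10 further tubulin genes, 4 were therefore at least 2-fold higher in ES cells, beside 22.7% of all genes. Another 2 were higher in E10.5 forebrain by this measure, beside 26.3% of all genes. A further 3 passed in neither direction, and 1 was below the minimum.

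Newly made tubulin is folded by prefoldin, the CCT chaperonin and the tubulin cofactors. None of these 20 genes was at least 2-fold higher in ES cells, beside 22.7% of all genes. In E10.5 forebrain 1 was, beside 26.3% of all genes, namely the prefoldin subunit *Pfdn2*, with 273 and 585 RPKM. The 8 CCT subunit genes were all higher in ES cells, by 1.25-fold (*Tcp1*) to 1.56-fold (*Cct6a*), and they were so under every scaling tried (1.03-fold or more), while the beta-tubulin sum was 1.45-fold higher in E10.5 forebrain. The folding genes had a median log2 ratio (ES cells to forebrain) of 0.33, beside -0.02 over all genes and -0.20 over protein-coding genes.

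Around *Tubg1*, the 11 genes of the gamma-tubulin complex and its anchors had a median log2 ratio of -0.56. *Nedd1*, which recruits the complex to the centrosome, had 213 RPKM in ES cells and 531 RPKM in E10.5 forebrain, 2.49-fold higher on the scale of RPKM + 1. *Tubgcp3*, a core subunit of the complex, had 381 and 778 RPKM, 2.04-fold higher in E10.5 forebrain. *Pcnt*, the pericentrin scaffold, went the other way, with 1202 and 383 RPKM, or 3.13-fold higher in ES cells. The other 8 genes were within 2-fold. By this measure, 26.3% of all genes were higher in E10.5 forebrain and 22.7% in ES cells.

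The genes for neuronal microtubule proteins differed most among the lists, with a median log2 ratio of -3.11. Of these 12 genes, 9 were at least 2-fold higher in E10.5 forebrain, beside 26.3% of all genes. In ES cells 1 was higher, beside 22.7% of all genes. *Dcx*, the doublecortin of migrating neurons, had 0.19 RPKM in ES cells (2 reads) and 253 RPKM in E10.5 forebrain (3909 reads), a ratio of 1332 (362 to 10800). *Stmn4*, a stathmin of neurons, had 0 reads in ES cells and 256 RPKM in E10.5 forebrain, at least 134-fold higher when set against a floor of 3 reads (1.91 RPKM). *Map2*, a dendritic microtubule protein, had 14.5 and 585 RPKM, a ratio of 40.4. *Dclk1*, a relative of doublecortin, had 7.90 and 205 RPKM, a ratio of 25.9. These ratios were all larger than that of *Tubb3*, which had a far higher level in ES cells. The 1 gene at least 2-fold higher in ES cells was *Stmn2*, a stathmin that destabilises microtubules. It had 6910 RPKM in ES cells and 1056 RPKM in E10.5 forebrain, 6.54-fold higher in ES cells. *Stmn3* (1310 RPKM in ES cells, 1235 in E10.5 forebrain) and *Mapt* (32.6 and 63.4 RPKM) were within 2-fold.

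The genes listed as general microtubule regulators differed less than those of the neuronal list. Of 14 such genes, 2 were at least 2-fold higher in E10.5 forebrain, beside 26.3% of all genes, and 0 in ES cells, beside 22.7%. *Clasp1*, which stabilises growing microtubule ends, had 446 and 1598 RPKM, and *Mapre3*, an end-binding protein, 3.23 and 56.5 RPKM. Of 15 tubulin modifying enzymes, 8 were at least 2-fold higher in E10.5 forebrain and 0 in ES cells, beside the same shares of all genes. A further 5 were in neither and 2 below the minimum. *Vash2* (17.4 and 477 RPKM) and *Vash1* (79.8 and 652 RPKM), which remove the C-terminal tyrosine of alpha-tubulin, had RPKM ratios of 27.5 and 8.18. *Ttll7*, which adds glutamates to the beta-tubulin tail, had 9.85 and 83.1 RPKM, a ratio of 8.43, and *Atat1*, the alpha-tubulin acetyltransferase, had 82.3 and 252 RPKM. The median log2 ratios of these 2 lists were -0.39 and -1.07.

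**Figure D5:**
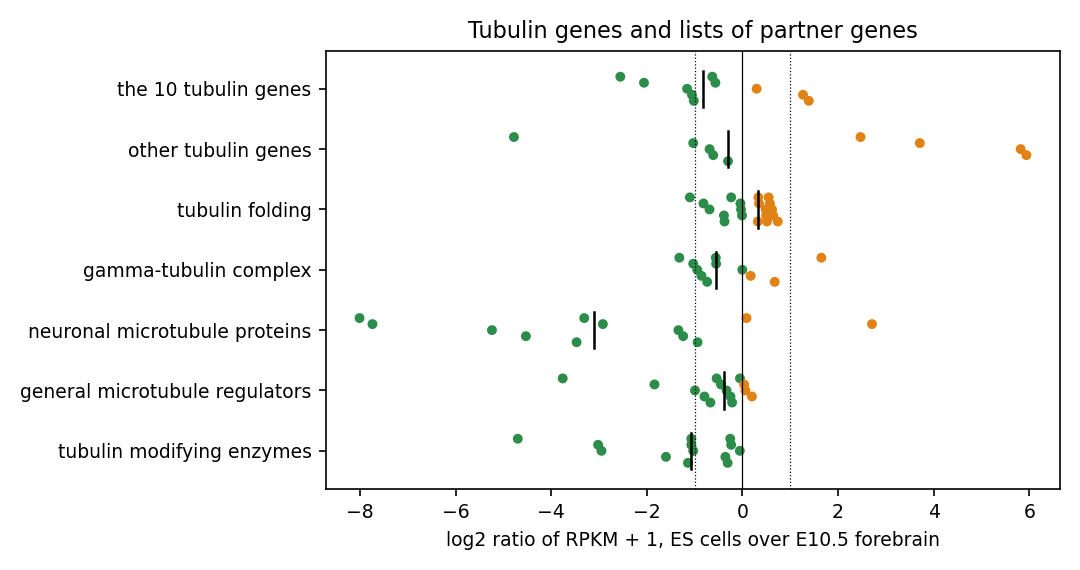
Each point is a gene, placed at the log2 ratio of RPKM + 1, ES cells to forebrain (orange above 0, green below), for the 10 tubulin genes and 6 lists of related genes, leaving out genes with a larger RPKM below 10. Black bars mark medians and dotted lines a 2-fold difference. The neuronal microtubule proteins have the lowest median, at -3.11, and the folding genes the highest, at 0.33.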

How the data were processed

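Per the labels and the methods of the study, rRNAs were removed from total RNA, and stranded libraries were read from 1 end. The authors aligned these reads on NCBIM37 (mm9) with the HTSstation pipeline (Bowtie 0.12.7 in the submitters' processing notes) and deposited 1 RPKM value per gene and sample, used here without further scaling. Values times exonic length in kb moved in steps of 1.222 (ES cells) and 0.8192 (E10.5 forebrain), where a scale per 1000000 reads on genes would give 0.0234 and 0.0167, so the authors' scaling is of another kind. Of 5817 and 5622 genes with up to 2500 bp of exon and under 10 reads, 59.3% and 60.7% lay within 0.05 of whole reads. Reads were inferred from the step and rounded, and the step was tested on simulated data. All 29311 genes matched the GENCODE annotation of the same build. Members and lists were chosen with earlier results of these data known. Named were all members, all further tubulin genes, the 3 protein-coding genes nearest to *Tubb2c* and to *Tubb3*, and in each list at most the 4 largest folds of at least 2 per direction. Other genes are named as context, chosen after their values were seen. Alternatives were other scalings, pseudocounts, filters, folds and denominators. blastn 2.17.0, Python 3.11.15, numpy 2.4.6, pandas 2.3.3, scipy 1.17.1, biopython 1.88 and matplotlib 3.10.9 were used.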

Additional observations from a re-analysis of the deposited data

How the results depend on the processing

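No fold of the 10 genes, of a family sum or of a CCT subunit gene changed direction under the alternatives tried. The folds of the other genes named were not computed under the other scalings. Counts, shares and the ratio of beta-tubulin to alpha-tubulin were not checked for a direction. Of all 68 alternatives, 19 left a value within its counting interval or a count within 1.5 times. The fold of *Tubb2c* (2.41) was 1.99 with each sample divided by the sum of its RPKM, 2.56 by its upper quartile, 2.26 per 1000000 reads on genes and 2.77 with the median protein-coding gene set to no difference, a scaling chosen after seeing the data. The fold of *Tubb3* (4.17) was 5.04, 3.93, 4.45 and 3.63. The sum moved the median log2 ratio of protein-coding genes by -0.27, to -0.47, and the last scaling moved it by 0.20. The genes at least 2-fold higher in ES cells numbered 1 by the sum and 2 otherwise. Those higher in E10.5 forebrain numbered 3 by the upper quartile and 2 by the protein-coding median, and 6 at a fold of at least 1.5. No share of all genes was computed for these alternatives. The share of *Tubb2c* in ES cells (19.3%) was 18.9% over all listed beta-tubulin genes, 14.5% of inferred reads and 22.4% without *Tubb2a* and *Tubb2b*. In E10.5 forebrain (5.53%) it was 5.38%, 4.12% and 6.85%. The share of *Tuba1a* (49.96% and 92.0%) was 26.5% and 90.3% over all listed alpha-tubulin genes, and 45.8% and 90.8% of inferred reads. Over all listed genes, also chosen after seeing the data, the alpha-tubulin sum was 1.73-fold (3.19) and the beta-tubulin sum 1.46-fold (1.45) higher in E10.5 forebrain, and beta-tubulin over alpha-tubulin was 9.61 in ES cells (17.7) but 8.12 in the forebrain sample (8.06). For all 8 other genes the direction held under every scaling, and the fold of *Tuba1b* came down to 1.017. The cause was not tested. No paired analysis was possible because each cell type has 1 sample.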
